A study of Mus musculus with 7 samples.

Results

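The mitosis genes described here are 40 genes whose products build the spindle, carry and separate the chromosomes, and cut the dividing cell. They were taken as a named list, chosen with earlier results of these data known. A gene was represented by the probe set with the highest mean over all arrays among those that the platform annotation assigns to that gene alone. On this rule 39 of the 40 were measured, out of 18193 genes represented on the array. No probe set was paired with Ccnb1, the cyclin B1 gene, and it was not analysed here.

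When a cell enters mitosis, cyclin-dependent kinase 1 bound to its cyclins drives the condensation of the chromosomes and the assembly of a spindle of microtubules. Kinetochores tie the chromosomes to the spindle, and a checkpoint holds the cell until every kinetochore is attached. A ubiquitin ligase then acts, the chromosomes part, the cyclins are destroyed and cytokinesis follows. Transcripts of these genes rise in G2 and M phase and are low in resting cells. In the bladder, the smooth muscle and the urothelium that lines it still grow after birth, and the adult urothelium turns over slowly.

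RNA was measured in 7 samples of FVB/N mice, each on 1 Affymetrix MOE430 array after 2 rounds of amplification. The 3 adult bladders and the 3 bladders of postnatal day 1 pups came from males that carried the SMGA/EGFP transgene, in which the promoter of the smooth muscle gamma-actin gene Actg2 drives EGFP, so both stages shared the transgene. The adults' age in weeks is not given in the labels. Each bladder was dissected whole, by gross dissection, and not pooled. The reference was 1 pool of whole wild-type pups of postnatal day 1, 4 males and 4 females; its title speaks of bladders, but the source and protocol fields say whole mouse, and these were followed here. Frozen adult bladders were held in liquid nitrogen and those of pups at the temperature of a freezer; storage therefore went with stage, and their shares in a difference cannot be told apart. Nothing in the labels says whether the bladders of a stage came from separate litters, and p-values measure the spread between these samples.

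The values are linear intensities that the authors had scaled to a common mean. The median intensity of the arrays ran from 209 to 312 over the bladders and was 434 in the reference. Markers of the labelled tissue were present in every bladder. The summed intensity of 9 smooth muscle genes was 282630 to 440816 over the 6 bladders against 72111 in the reference, and that of 10 urothelial genes 178893 to 229374 against 29456. Skeletal muscle genes differed between the stages: the sum of 8 was 1638 to 2467 in adult bladders and 32625 to 47716 in newborn bladders, and 5 of the 8 were lower in the adult by limma. Genes of male accessory glands reached a sum of 9327 and 9267 in adult replicates 1 and 3, where adult replicate 2 had 202 and the newborns 111 to 183. Macrophage genes also went with stage: the sum of 6 was 26284 to 42557 in adults and 12778 to 19004 in newborns, and 1 of the 6, Lyz2, was called higher in the adult. The part of skeletal muscle, accessory glands and macrophages in the results below was not tested. The array-wide spike-in signal was highest in adult replicate 2 (2.35 times the lowest array). Among the newborn bladders it was highest in replicate 3 (1.68 times), and in the reference it was 1.88 times.

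Many mitotic genes share a short promoter element, the cell cycle genes homology region (CHR), with the core TTTGAA, to which the MuvB complex binds, and a CCAAT box, which NF-Y binds. The promoters of the members were read, as a description, from the RefSeq promoter table (GRCm38.p6), which held 34 of the 39 members. The 100 bases before the annotated start are shown for the 7 members that hold the CHR core within 50 bases before it, and for Nusap1, a spindle gene that holds neither motif in its window. Each is written 5′ to 3′ on the strand of the gene, and capitals mark TTTGAA or its reverse complement TTCAAA, and CCAAT or its reverse complement ATTGG.
Kif11: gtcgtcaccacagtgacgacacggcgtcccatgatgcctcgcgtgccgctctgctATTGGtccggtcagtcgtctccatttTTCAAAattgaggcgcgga
Kif22: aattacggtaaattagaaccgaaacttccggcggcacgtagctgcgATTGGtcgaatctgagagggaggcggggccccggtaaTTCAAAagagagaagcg
Prc1: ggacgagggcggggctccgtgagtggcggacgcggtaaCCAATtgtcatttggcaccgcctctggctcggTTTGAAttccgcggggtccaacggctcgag
Cdk1: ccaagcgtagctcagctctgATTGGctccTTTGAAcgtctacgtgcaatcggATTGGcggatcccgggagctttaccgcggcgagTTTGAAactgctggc
Cdc20: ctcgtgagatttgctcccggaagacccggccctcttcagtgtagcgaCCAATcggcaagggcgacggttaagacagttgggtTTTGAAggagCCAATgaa
Ube2c: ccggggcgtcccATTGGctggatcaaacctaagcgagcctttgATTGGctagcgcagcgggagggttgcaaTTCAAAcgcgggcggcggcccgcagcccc
Top2a: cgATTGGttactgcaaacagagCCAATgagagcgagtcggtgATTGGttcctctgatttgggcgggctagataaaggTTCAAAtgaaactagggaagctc
Nusap1: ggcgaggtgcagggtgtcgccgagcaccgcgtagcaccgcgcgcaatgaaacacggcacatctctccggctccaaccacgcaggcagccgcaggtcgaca

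The stretches lie at chr19:37376282-37376381 (forward strand) for Kif11, chr7:127042421-127042520 (reverse strand) for Kif22, chr7:80294376-80294475 (forward strand) for Prc1, chr10:69352913-69353012 (reverse strand) for Cdk1, chr4:118437344-118437443 (reverse strand) for Cdc20, chr2:164769829-164769928 (forward strand) for Ube2c, chr11:99024190-99024289 (reverse strand) for Top2a and chr2:119618198-119618297 (forward strand) for Nusap1. The CHR core began 19 bases before the start in Kif11, 17 in Kif22, 18 in Cdc20, 29 in Ube2c and 23 in Top2a. The table gives Prc1 several starts: the core began 30 bases before the one whose stretch is shown, and 5 bases before the other, which the plot of motif positions uses. Cdk1 held it at 71 and again at 15 bases before its start. Over the window of the table, 250 bases before to 50 after the start, 26 of the 34 members (76.5%) held TTTGAA on either strand, against 2263 of 14452 array genes with a promoter (15.7%). Of these 26, 7 held it within 50 bases before the start and 17 within 50 bases after it, and in the other 2, Kif2c and Mki67, it lay farther upstream. The window of 50 bases on each side was chosen after the matches were seen. In it 24 of 34 members (70.6%) and 4.09% of array genes held the core. With the bases before the start alone, the share was 32.4% of members and 14.1% of array genes. CCAAT was found in 26 members (76.5%) against 42.0% of array genes, and 23 members (67.6%) held both motifs in 1 window, against 6.21%. The CHR variants TTCGAA and TTTAAA were found in 3 and 9 members (8.82% and 26.5%, against 2.23% and 12.1% of array genes). Matches of different motifs overlapped in 1 place. Nuf2, Mad2l1, Melk and Nusap1 held none of the 4 motifs in the window; Kif20a, Aurkb, Ccna2, Tpx2 and Dlgap5 had no entry in the table. A match is a run of letters and not a measured binding site.

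**Figure D1:**
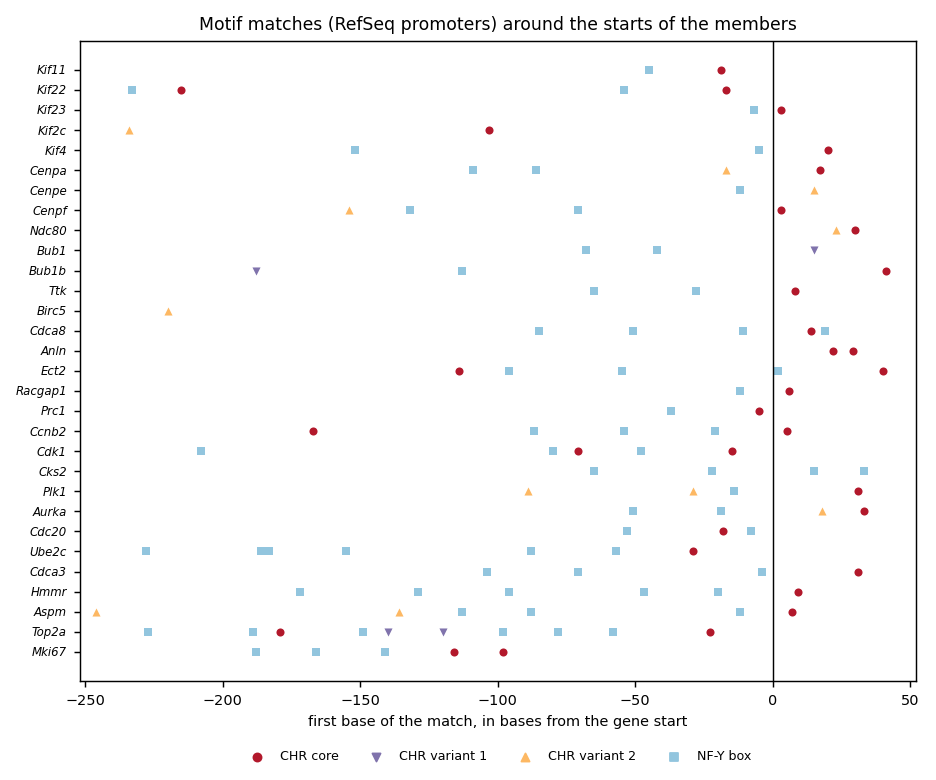
Positions of motif matches in the RefSeq promoters of members, in bases from the annotated gene start (vertical line at 0). Each row is a member with a match, each symbol the first base of a match on either strand, in the first window the table gives for the gene; CHR variants 1 and 2 and the NF-Y box are the further motifs named in the text. The CHR core (circles) is drawn for 26 members and lies within 50 bases of the start in 24.

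The first comparison asked how the mitosis genes of the bladder differ between newborn and adult animals. Of the 39 members, 36 were lower in adult than in newborn bladder and 0 were higher (limma, adjusted p under 0.05 over 45037 probe sets). By the same rule 2.39% of all 18193 genes were lower and 1.75% higher. The 3 members that did not pass were Kif4, Kif23 and Dlgap5, whose differences were also negative. The median member differed by -3.46 on the log2 scale, adult minus newborn, with a range from -4.84 to -1.71; the median of all genes was -0.03. On this scale, log2 of the intensity plus 49, a difference of -3 is 8-fold before the added 49, which understates the fold of dim genes. A difference below -3 was found for 29 members and for 0.599% of all genes.

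In 38 of the 39 members every newborn bladder lay above every adult bladder, which was so for 14.1% of all genes. The lowest newborn value was 7.47 times the highest adult value in the median of these 38. As mean intensities, adult bladder held 7.26% of the newborn value in the median member. Among the 11 members with no adult bladder below the median of its array the share ran from 4.72% in Mki67 to 27.6% in Kif23. In 5 members, Ndc80, Bub1, Aurkb, Plk1 and Dlgap5, the adult mean lay under 49, and a ratio of intensities there has little meaning. In bulk tissue, fewer dividing cells and less of these RNAs per cell cannot be told apart.

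**Figure D2:**
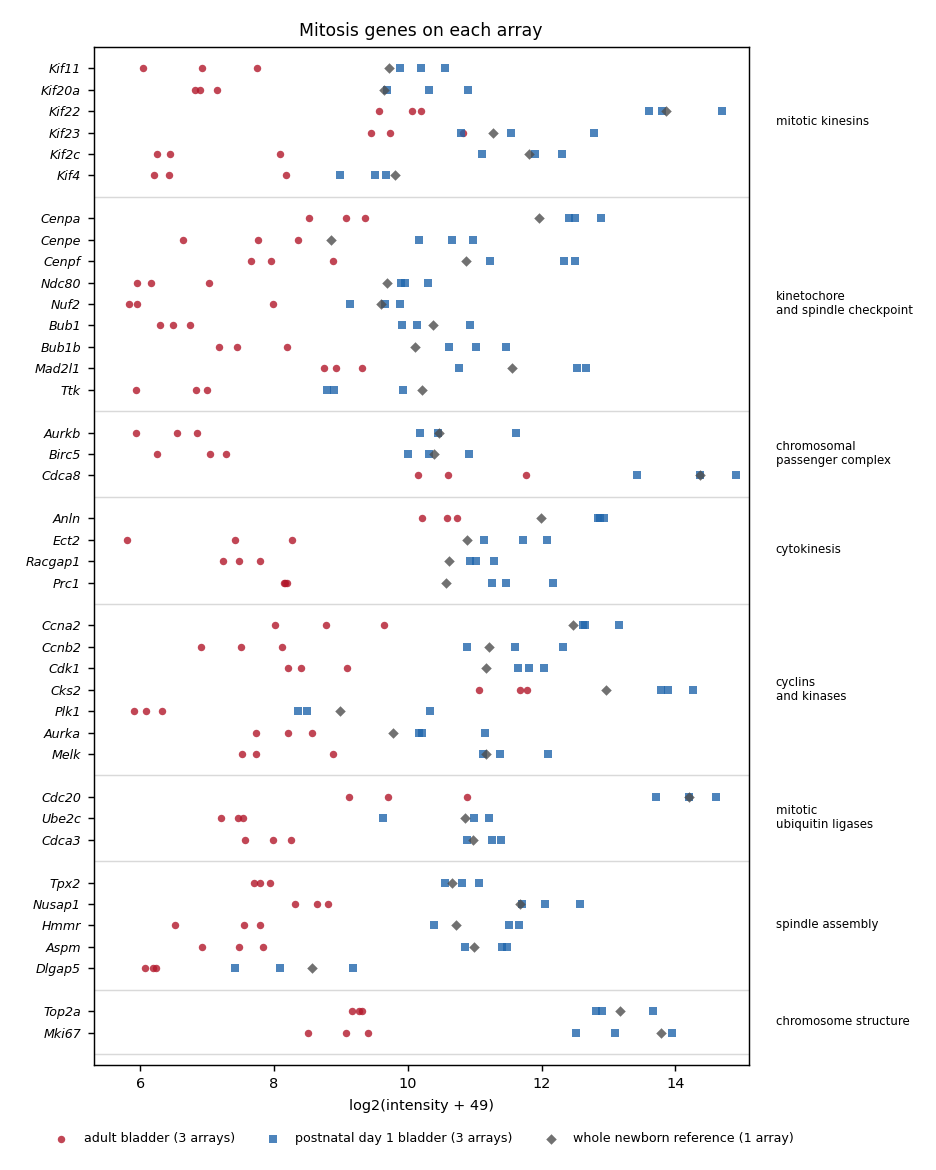
Intensity of each mitosis gene on each of the 7 arrays, as log2(intensity + 49), by role; circles are adult bladders, squares newborn bladders and diamonds the whole newborn reference. Adult values lie to the left of all newborn values except in Kif23, where 1 adult bladder (1772) overlaps the lowest newborn bladder (1719).

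Mitotic kinesins are motors that push spindle microtubules apart, move chromosomes or end the division, and 4 of the 6 were lower in the adult, with a median of -3.33. Kif11, the motor that separates the spindle poles, read 16.4, 71.6 and 165 in adult replicates 1 to 3 and 1121, 899 and 1464 in newborn replicates 1 to 3. It fell by 3.32 (SE 0.51, adjusted p = 0.0147). Leaving out adult replicate 1, newborn replicate 1 or newborn replicate 3 raised the adjusted p to between 0.0514 and 0.056. The other Kif11 probe sets differed by -2.72 (adjusted p = 0.0304) and -0.17 (adjusted p = 0.95). Kif20a, which acts in the central spindle and cytokinesis, read 63.3, 70.3 and 92.7 in adults and 774, 1228 and 1860 in newborns, and it fell by 3.35 (SE 0.43, adjusted p = 0.00777). The adult values of Kif20a lay close together and far from the newborn ones.

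Kif22, a chromosome-arm motor, read 1119, 1022 and 708 in adults and 14298, 12376 and 26479 in newborns, and fell by 4.10 (SE 0.33, adjusted p = 0.00218). Kif2c, which takes microtubules apart at kinetochores, read 27.3, 222 and 38.1 against 2152, 3760 and 4992. It differed by -4.84 (SE 0.55, adjusted p = 0.00554). Both values come from probe sets whose _x_at suffix marks probes that may also bind other transcripts. The other Kif2c probe sets differed by -0.73, -0.72 and -1.14, with adjusted p of 0.406, 0.577 and 0.19, and the specific probe set of Kif22 by -2.32 (adjusted p = 0.0625). The calls of Kif2c and Kif22 therefore rest on probe sets that are not specific.

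Kif4, which condenses chromosomes and shapes the central spindle, read 37.2, 241 and 24.7 in adults and 459, 680 and 766 in newborns, a difference of -2.45 (SE 0.58, adjusted p = 0.0669). Adult replicate 2 stood well above the other 2 adults; without it the difference was -3.07 with an adjusted p of 0.023. Kif23, a motor of the centralspindlin complex that acts in cytokinesis, read 798, 1772 and 650 against 1719, 2946 and 7014. Its difference of -1.71 (SE 0.54, adjusted p = 0.149) was the smallest of the members, and its newborn values spread 4-fold, with replicate 3 highest.

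The kinetochore and checkpoint genes among the members all fell: 9 of 9 were lower in the adult, with differences from -3.86 to -2.62 and a median of -3.43. Cenpa, the histone that marks the centromere, read 317, 606 and 488 in adults and 5771, 5375 and 7564 in newborns. It fell by 3.62 (SE 0.30, adjusted p = 0.00219), with groups 8.87-fold apart. Cenpf, a kinetochore protein of G2 and M phase, read 152, 421 and 199 against 5731, 2361 and 5142 and fell by 3.86 (SE 0.45, adjusted p = 0.00593). Cenpe, the kinetochore's own motor, read 279, 168 and 50 against 1566, 1101 and 1960. It fell by 3.02 (SE 0.50, adjusted p = 0.0193), and the adjusted p rose to between 0.0534 and 0.0736 without adult replicate 3 or any 1 newborn array.

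Ndc80 and Nuf2 encode partners in the complex that grips the microtubule. Ndc80 read 22.1, 12.6 and 80.8 in adults and 1218, 903 and 945 in newborns, and it fell by 3.68 (SE 0.44, adjusted p = 0.00612). Nuf2 read 12.5, 205 and 7.72 against 511, 763 and 894 and fell by 2.97 (SE 0.62, adjusted p = 0.0444). Of the members called, Nuf2 had the highest adjusted p. Adult replicate 2 alone lay above 100 in the adult group, and the call was lost when any 1 of the other 5 arrays was left out, at adjusted p of 0.0964 to 0.167.

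The checkpoint kinases and their partners followed. Bub1 read 29.5, 58.3 and 40.6 in adults and 1077, 920 and 1903 in newborns, and it fell by 3.82 (SE 0.43, adjusted p = 0.00524). Bub1b, which encodes the checkpoint protein BubR1, fell by 3.43, from a newborn mean of 2109 ± 640 (SD, n = 3) to 155 ± 79.2. Mad2l1, the MAD2 protein that restrains the ubiquitin ligase, read 438, 380 and 585 against 1688, 6427 and 5845 and fell by 2.99 (SE 0.49, adjusted p = 0.0195). Newborn replicate 1 was the low one for Mad2l1, and its call was lost when any 1 of the other 5 arrays was left out (adjusted p of 0.055 to 0.0842). Ttk, the kinase MPS1, read 65.2, 78.0 and 12.2 against 395, 428 and 926 and fell by 2.62 (SE 0.50, adjusted p = 0.0308); its call was lost without any single array except adult replicate 2 (0.0705 to 0.135).

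The chromosomal passenger complex corrects faulty attachments and guides cytokinesis, and the 3 of its genes among the members all fell. Incenp, its scaffold, is in the list of other mitosis genes and was named here after its value was seen; it fell by 2.06 (SE 0.31, adjusted p = 0.0147), on an _x_at probe set. Aurkb, its kinase, read 44.7, 12.4 and 66.3 in adults and 1107, 1348 and 3098 in newborns, and it fell by 4.30 (SE 0.50, adjusted p = 0.00591). Its adult mean of 41.1 lies under the added 49, at the dim end of the array, and gives no exact fold. Birc5, the survivin gene, read 83.2, 26.7 and 106 against 1222, 981 and 1878 and fell by 3.55 (SE 0.45, adjusted p = 0.00741). Cdca8, which encodes borealin, read 1083, 3434 and 1501 against 10923, 21127 and 30755 and fell by 3.40 (SE 0.48, adjusted p = 0.0119). Its adjusted p rose to between 0.0502 and 0.0637 without adult replicate 1, adult replicate 3 or newborn replicate 2.

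The 4 cytokinesis genes among the members all fell. Anln, the actin-binding anillin of the contractile ring, read 1481, 1659 and 1143 in adults and 7329, 7792 and 7487 in newborns, and it fell by 2.38 (SE 0.23, adjusted p = 0.0035). This is one of the smaller differences, with the closest newborn replicates of any member (SD 0.04 log2). The other Anln probe set read 378, 260 and 311 in adults and 319, 406 and 970 in newborns. There the groups overlapped, with a difference of -0.61 (adjusted p = 0.585). Ect2, which activates RhoA at the cleavage plane, read 6.88, 122 and 259 against 2216, 3328 and 4296. It fell by 4.49 (SE 0.60, adjusted p = 0.00933), with adults that differed widely from each other (SD 1.25 log2). Racgap1, the partner of Kif23, read 101, 173 and 129 against 2033, 1910 and 2448 and fell by 3.58 (SE 0.33, adjusted p = 0.00319). Prc1, which bundles the central spindle, read 244, 239 and 236 against 2773, 2414 and 4559 and fell by 3.46 (SE 0.33, adjusted p = 0.00343), with the closest adult replicates of any member (SD 0.02 log2).

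The 7 measured members among the cyclins and kinases all fell, with a median of -3.26. Ccna2, cyclin A2, read 210, 747 and 387 in adults and 6402, 6244 and 9122 in newborns, and fell by 4.00 (SE 0.41, adjusted p = 0.00392). Ccnb2, cyclin B2, read 71.4, 133 and 229 against 3072, 1840 and 5042 and fell by 4.09 (SE 0.47, adjusted p = 0.00562). At their nearest values the groups of Ccna2 stood 8.35-fold apart and those of Ccnb2 8.03-fold. Cdk1, the kinase they activate, read 494, 248 and 289 against 4139, 3149 and 3556 and fell by 3.26 (SE 0.32, adjusted p = 0.0035). Cks2, a small subunit of that kinase, read 3226, 3479 and 2093 against 14154, 19581 and 15076, and it fell by 2.47 (SE 0.26, adjusted p = 0.00451).

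Plk1, a kinase of mitotic entry and spindle assembly, read 18.6, 30.9 and 10.6 in adults and 278, 310 and 1241 in newborns, and it fell by 2.96 (SE 0.57, adjusted p = 0.032). Newborn replicate 3 read far above the other newborns. The call was lost without any single array except that one, at adjusted p of 0.056 to 0.139. Aurka, the spindle pole kinase, read 163, 331 and 247 against 1135, 1102 and 2240 and fell by 2.35 (SE 0.41, adjusted p = 0.0233); without any single array except adult replicate 2 the adjusted p was 0.0611 to 0.0995. Melk, a kinase of proliferating cells, fell by 3.49 (SE 0.44, adjusted p = 0.00756), from a newborn mean of 3053 ± 1136 (SD, n = 3) to 240 ± 159.

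Of the members that act in mitotic ubiquitin ligases, 3 of 3 fell. Cdc20, the activator of the anaphase-promoting complex, read 505, 1843 and 782 in adults and 18875, 13438 and 24923 in newborns, and fell by 4.28 (SE 0.44, adjusted p = 0.00401). Ube2c, the enzyme that hands ubiquitin to that complex, read 127, 136 and 98.3 against 1978, 739 and 2336 and fell by 3.21 (SE 0.48, adjusted p = 0.0131). Newborn replicate 2 was low for Ube2c, and its adjusted p rose to between 0.0581 and 0.0695 without adult replicate 1, adult replicate 3 or newborn replicate 1. Cdca3, a trigger of mitotic entry that acts in protein destruction, read 205, 257 and 140 against 2396, 1840 and 2641 and fell by 3.24 (SE 0.34, adjusted p = 0.0041).

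Among the members that act in spindle assembly 4 of 5 fell. Tpx2, which activates Aurora A on the spindle, read 197, 171 and 158 in adults and 1741, 1453 and 2097 in newborns, and it fell by 3.0 (SE 0.33, adjusted p = 0.00492). Nusap1, a microtubule-binding protein and the member with no motif match shown above, read 400, 349 and 267 against 4209, 3310 and 6028 and fell by 3.53 (SE 0.32, adjusted p = 0.00304). The other members without any of the 4 motifs, Nuf2, Mad2l1 and Melk, differed by -2.97, -2.99 and -3.49. A tie between motif and difference was not tested. The median difference was -3.52 over the 26 members with TTTGAA and -3.25 over the 8 members whose window lacked it, as a description. Hmmr, a spindle protein and hyaluronan receptor, and Aspm, a spindle pole protein, fell by 3.91 and 3.84 (adjusted p of 0.00727 and 0.0035). Dlgap5, which stabilises kinetochore fibres, read 26.1, 24.2 and 18.4 against 223, 121 and 529, a difference of -2.06 (SE 0.48, adjusted p = 0.065). Of all members, Dlgap5 was the only one with newborn bladders below the median of their array, in 2 of 3.

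The members of chromosome structure both fell. Top2a, the topoisomerase that untangles sister chromosomes, read 525, 586 and 565 in adults and 7169, 7593 and 12985 in newborns. It fell by 3.88 (SE 0.29, adjusted p = 0.00218), with groups 12.2-fold apart. Mki67, whose product coats mitotic chromosomes and is a common marker of proliferation, read 491, 625 and 315 against 8765, 5791 and 15790 and fell by 4.20 (SE 0.40, adjusted p = 0.00347).

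**Figure D3:**
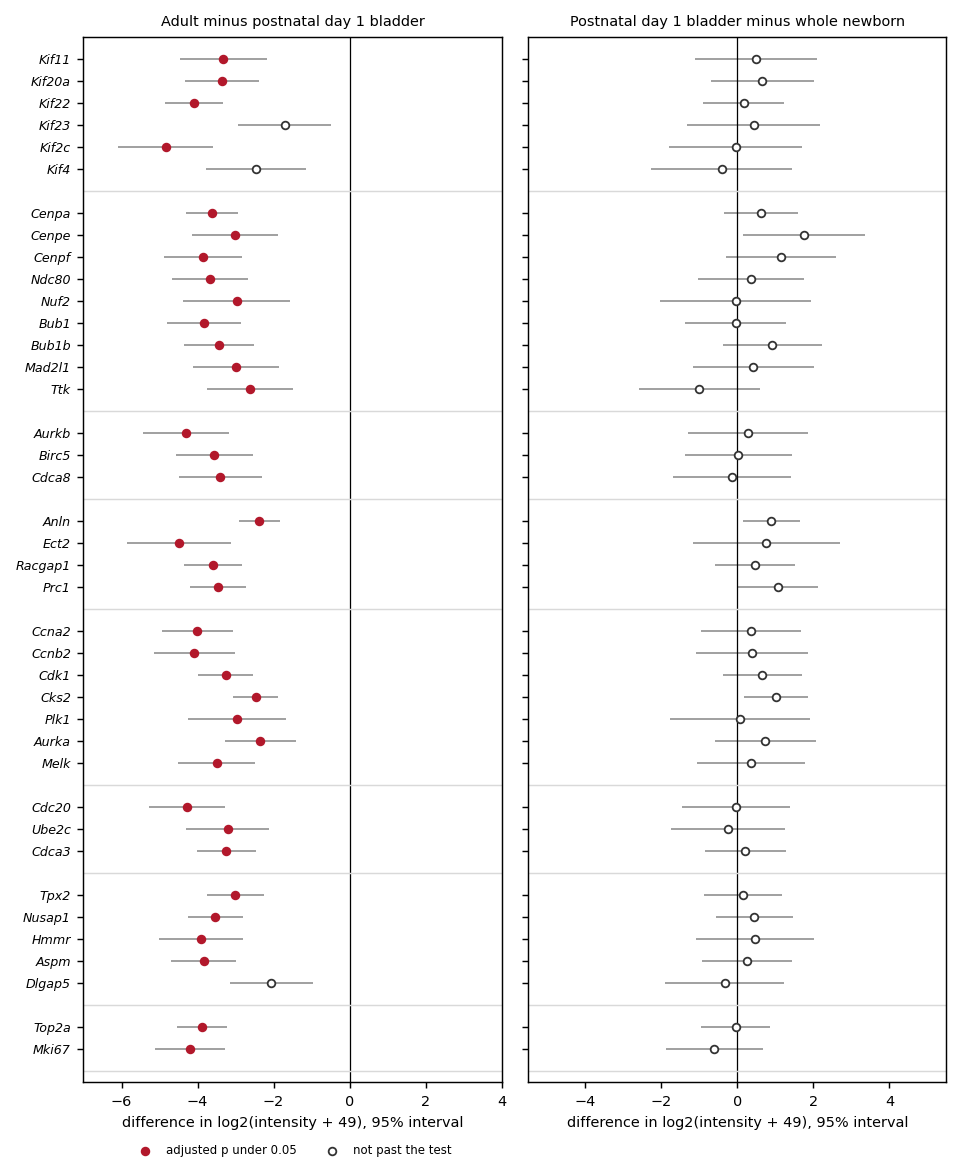
Difference of each member in log2(intensity + 49) with its 95% interval from limma, adult minus newborn bladder on the left and newborn bladder minus whole newborn reference on the right; filled points passed an adjusted p of 0.05. On the left 36 of 39 members passed, all below 0; on the right none of 39 passed, and the intervals had a median width of 2.82.

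All 3 adult bladders lay below the median of their array in 20 members (51.3%), against 31.8% of all genes, some did in 8 and none did in 11 (28.2%, against 57.6% of all genes). A median says nothing of detection, for which no calls were used here, and levels of different probe sets have no order between genes. Among the 20 were Kif11, Ndc80, Bub1, Aurkb, Plk1 and Birc5; among the 11 were Cenpa, Anln, Cks2, Cdc20, Top2a and Mki67.

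Within each stage the same array was often the high one. Newborn replicate 3 was the highest newborn bladder in 31 of 39 members, against 32.3% of all genes, and the lowest in 0. Newborn replicate 2 was the lowest in 25. Adult replicate 2 was the highest adult in 23 members, against 44.0% of all genes. The median member lay at -0.14, -0.31 and 0.46 log2 from the newborn mean in newborn replicates 1 to 3, and at -3.78, -3.25 and -3.48 in adult replicates 1 to 3. The step between the stages was thus far larger than the spread within either. Newborn replicate 3 also had the lowest ratio of 3′ to 5′ Actb signal, 1.85, against 3.18 and 3.70 in the other newborns and 3.84 to 5.15 in adults; this ratio rises when amplified RNA is short. For Gapdh the order was different, with 15.3 to 19.6 in adults and 19.1 to 30.9 in newborns. The part of RNA length in the stage difference was not tested.

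**Figure D4:**
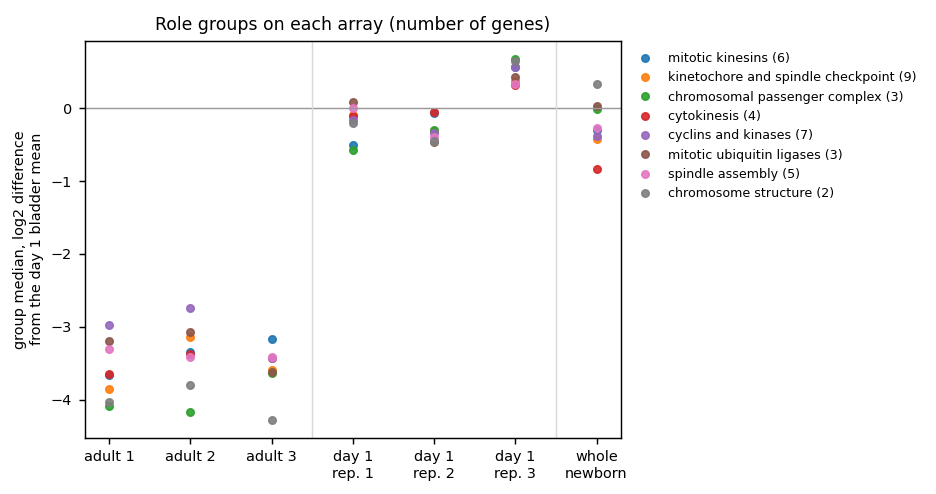
Median difference of each role group from the newborn bladder mean, in log2(intensity + 49), on each array; each colour is a role group with the number of its genes. Every group lies between -4.27 and -2.74 in the adult bladders and between -0.57 and 0.68 in the newborn bladders, and the reference runs from -0.83 for cytokinesis genes to 0.33 for chromosome structure.

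Leaving out 1 array at a time, 28 to 35 members were called lower, the fewest (28) without adult replicate 1 and without adult replicate 3, and 27 were called whichever array was left out. The 9 that were not are named above: Kif11, Cenpe, Nuf2, Mad2l1, Ttk, Cdca8, Plk1, Aurka and Ube2c. Without the adult and the newborn array of highest spike-in signal, 30 members were called; Ect2 was then not (adjusted p = 0.065). With a pseudocount of 165 in place of 49, Plk1 was not called (0.0762), and with 17 Nuf2 was not (0.0505). Taking the mean of a gene's probe sets in place of the brightest, 32 members were called, with a median of -2.56, and Cenpe, Ttk, Aurka, Cdca3 and Aspm were not, at adjusted p of 0.0601 to 0.0996. Of the 26 members with several probe sets, the 47 probe sets not used for the gene differed by a negative value in 44 and a positive one in 3; 13 were called lower, against 1.52% of all probe sets, and 0 higher. Of these 47, 21 lay above their array's median on fewer than 2 arrays. Of the 7 members represented by a probe set that is not specific, Bub1b, Prc1, Cdc20 and Cdca8 also had a specific one that was called lower, at -3.03, -3.81, -3.61 and -3.16, while both probe sets of Aurkb are unspecific. The positive differences belonged to further probe sets of Bub1b (0.81), Kif23 (0.62) and Cdca3 (0.12), none of them called.

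The second comparison asked where newborn bladder stands against whole newborns of the same day. No member differed by limma in either direction, in a fit that lends the lone reference array the spread of the bladder arrays; 5.47% of all genes were lower and 2.15% higher in the bladder (3.31% and 4.48% with median centring). At an unadjusted p under 0.05 there were 4 of the 39 members, all higher in the bladder. Over all genes 4085 of 18193 reached this in either direction, so the 4 do not stand out by number. The median member stood 0.37 higher in newborn bladder, with 28 positive and 11 negative differences, from -1.0 to 1.74. The intervals were wide, with a median width of 2.82, and the adjusted test asks for more than an interval that leaves out 0. Differences well above 2-fold could therefore be missed in most members. Even the largest, 1.74, was not called. Array medians differed too: the reference lay 0.68 above the newborn bladders on the log2 scale. With each array centred on its median the member median was 1.05, beside 0.59 over all genes, 38 of 39 differences were positive, and still no member was called. With the mean of a gene's probe sets the member median was 0.06.

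The reference value lay within the range of the 3 newborn bladders in 21 members, against 33.2% of all genes. It lay above the range in 2 (38.1% of all genes) and below it in 16, or 41.0%, against 28.7% of all genes. Below it were all 4 cytokinesis genes, 5 of 9 kinetochore and checkpoint genes, 4 of 7 cyclins and kinases, 2 of 6 kinesins and 1 of 5 spindle assembly genes. Cenpe was farthest from the reference, with 414 there against 1101 to 1960 in newborn bladder, a difference of 1.74 (SE 0.71, adjusted p = 0.212). Cks2 read 7969 in the reference against 14154 to 19581 (1.01, adjusted p = 0.172) and Anln 4029 against 7329 to 7792 (0.89, adjusted p = 0.177). Prc1 read 1466 against 2414 to 4559, a difference of 1.07 (SE 0.46, adjusted p = 0.243). These are the 4 with an unadjusted p under 0.05. Cenpf read 1815 against 2361 to 5731 (1.16, adjusted p = 0.363), which turned to -0.37 when the gene was taken as the mean of its probe sets.

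At the other end, Ttk read 1137 in the reference against 395 to 926, a difference of -1.0 (SE 0.70, adjusted p = 0.485), and Kif4 845 against 459 to 766 (-0.41, adjusted p = 0.832). These were the 2 members in which the whole newborn lay above every newborn bladder. Mki67 read 14153 in the reference, inside the newborn range, at -0.60 (SE 0.56, adjusted p = 0.614), and 0.08 after median centring, which shifts every gene by 0.68. Whole newborns hold blood-forming tissue, which divides fast: the summed intensity of 6 erythroid precursor genes was 30310 in the reference, 1126 to 1535 in newborn and 364 to 854 in adult bladders, and 4 or 5 of the 6 lay below the array median in each newborn bladder. Their part in the comparison with the reference was not tested.

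Against the same reference, adult bladder was lower in 31 members and higher in 0, with 7.39% of all genes lower and 3.86% higher. The median difference was -3.09. The largest were Kif2c at -4.88 (adjusted p = 0.00634; -0.67 and not called with its specific probe sets) and Mki67 at -4.80 (adjusted p = 0.00169), and Top2a had the lowest adjusted p, 0.000909, at -3.93. The 8 that did not pass were Kif23, Kif4, Cenpe, Nuf2, Mad2l1, Plk1, Aurka and Dlgap5, with differences from -3.02 to -1.27. This comparison shares the adult arrays with the first and the reference with the second, so the 3 sets of values are not separate evidence. With median centring 23 members were called and the median was -2.42; 4.6% of all genes were then lower. Leaving out 1 array at a time gave 23 to 32, the fewest without adult replicate 3.

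The members were set beside other lists, to see how far the difference reached. Of 71 other measured mitosis genes, 32 were lower in the adult and 0 higher, with a median of -1.90 and values on both sides of 0. The lowest were Shcbp1, a cytokinesis protein (-4.66), Cep55, which acts at the midbody (-4.16), the kinase Pbk (-4.11) and Cdca5, the cohesin regulator sororin (-4.01). All 4 were called. The highest were Kif14 (0.32), Zwint (0.28), Zw10 (0.26) and Cenpm (-0.03), none of them called. Zwint and Zw10, which hold checkpoint proteins at the kinetochore, read 7802 ± 1735 and 5009 ± 473 (SD, n = 3) in adult bladder and 6421 ± 1457 and 4290 ± 1144 in newborn bladder. Kif14 read 8.20 to 74.8 over the bladders, near the floor of the array. Foxm1 and Mybl2, named here after their values were seen, are transcription factors that act on mitotic genes with MuvB. They differed by -0.50 and -0.37 (adjusted p of 0.63 and 0.732). Foxm1 read 279 to 619 in adult and 426 to 630 in newborn bladders. Mybl2 read 82.6 to 156 and 107 to 214, below the median of its array in every bladder. So dim a probe set could miss a change.

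DNA replication genes, which act in S phase, were lower in 18 of 38 and higher in 0, with a median of -1.37. The lowest were thymidine kinase Tk1 (-4.45), the DNA polymerase epsilon gene Pole (-3.44) and the ribonucleotide reductase subunit Rrm2 (-3.39), all called. The highest were Gins3 (0.40), Tyms (0.22) and Gins4 (-0.01), none called. The kinesins of the members can be set beside 17 other kinesins and partners, most of them carriers of cargo and here called transport kinesins. Of these 17, 0 were called either way and the median was -0.40. Their extremes were Kif5c (-1.49) and Kif26b (-1.25) at the low end and Kif13a (0.87) and Kif1b (0.77) at the high end, with adjusted p from 0.0883 to 0.187. Of 11 housekeeping genes, 1 was called, Sdha, higher by 1.01 in the adult, and the median was -0.31. No test between the lists was made.

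**Figure D5:**
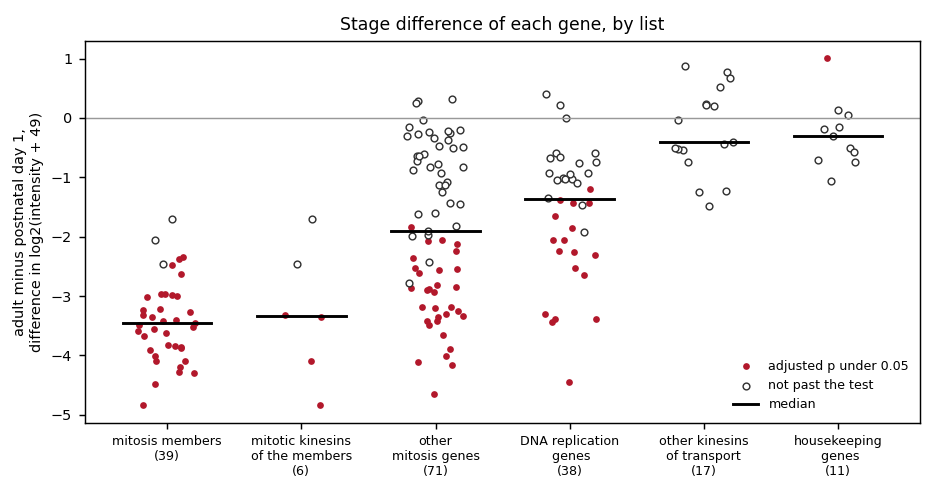
Stage difference of each gene, adult minus newborn bladder in log2(intensity + 49), for the mitosis members, their kinesins apart and 4 other lists; filled points passed an adjusted p of 0.05 and bars are medians. Members have a median of -3.46, other mitosis genes -1.90, DNA replication genes -1.37, transport kinesins -0.40 and housekeeping genes -0.31.

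The promoter shares of those lists were read in the same way. TTTGAA was found in 33 of 59 other mitosis genes with a promoter (55.9%), 6 of 31 DNA replication genes (19.4%) and 2 of 13 transport kinesins (15.4%), beside 76.5% of members and 15.7% of array genes. CCAAT was found in 64.4%, 54.8% and 38.5% of the same lists. With the bases before the start alone, TTTGAA was found in 42.4%, 16.1% and 15.4% of them. Beside these stood 32.4% of members and 14.1% of array genes, so there the members lay below the other mitosis genes. In newborn bladder against the reference, 1 of the 71 other mitosis genes was called higher, against 2.15% of all genes. It was Cenpl, a centromere protein named for this exception. Cenpl read 428, 846 and 789 in newborn bladder and 11.3 in the reference, a difference of 3.56 (SE 0.61, adjusted p = 0.0118). The call rests on that 1 low reading, on an array whose median was 434. In the same comparison DNA replication genes and transport kinesins had 0 calls, with medians of -0.17 and -0.18. In adult bladder against the reference, 24 of the 71 other mitosis genes were lower and 1 higher (Cenpl, by 2.48), and 14 of 38 DNA replication genes were lower, with medians of -1.39 and -1.56.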

How the data were processed

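Bladders of 3 adult and 3 newborn mice and 1 whole newborn pool were measured on 7 arrays. The deposited values are linear intensities, without detection calls. Per the submitters' processing notes the authors used GCOS, with its version and settings not given in the sources used here; with 2% trimmed at each end, every array had a mean of 1500.01.

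Of 45101 probe sets, 64 controls were left out; 34945 named 1 gene, 932 several and 9160 none. Intensities were taken as log2(intensity + 49), 49 being the 20th percentile of all values, with no filter on low values, so that every measured member was tested, and with no centring. Limma 3.58.1 in R 4.3.3 (lmFit, eBayes with a trend, two-sided, Benjamini-Hochberg over 45037 probe sets) was fitted to the 6 bladder arrays for the stages and to all 7, with 4 residual degrees of freedom, for the reference. The fits were run on simulated data in which every array, the reference included, had a spread taken from the bladder arrays. Such data cannot check whether the lone reference varies like the bladders.

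The members and lists were chosen with earlier results of these data known. All members are named; of other mitosis genes up to 4, of replication genes up to 3 and of transport kinesins up to 2 at each end are named, with exceptions. Alternatives were pseudocounts of 17 and 165, median centring, quantile normalization, a filter at the array median, array weights, robust eBayes and eBayes without its trend. Others were the mean of a gene's probe sets, all 7 arrays in 1 fit and leaving out each bladder array. A further one left out the adult and the newborn bladder of highest spike-in signal, here both spike-in arrays, and kept the reference. Specific probe sets only were an alternative chosen after seeing the data. The number of arrays limits the precision. Motifs were searched on both strands.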

Additional observations from a re-analysis of the deposited data

How the results depend on the processing

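In no alternative was a member called higher in adult than in newborn bladder, or called in either direction between newborn bladder and the reference. Members called lower in the adult numbered 28 to 39 of those tested. The median stage difference was -2.82 with a pseudocount of 165 and -2.56 with the mean of a gene's probe sets, under which 32 members were called; Cenpe, Ttk, Aurka, Cdca3 and Aspm were then not. Leaving out 1 array gave medians from -3.66 to -3.21. Probe sets called between the stages, 1258 in the fit reported, were 3065 with array weights, 779 without both arrays of highest spike-in signal and 243 to 1280 without 1 array. Between newborn bladder and the reference the median was 1.05 with median centring and 0.10 to 0.45 without 1 array (0.10 without newborn replicate 3). With the mean of probe sets the median was 0.056. Single members were followed through the alternatives only for Cenpe, Cenpf, Prc1, Ttk and Mki67, 5 in all: Cenpf reversed to -0.37 with the mean of probe sets and Mki67 to 0.078 with median centring, a shift that applies to every gene and left 38 of 39 members positive. Its probe sets called (2425) were 3934 with array weights, 4169 without both spike-in arrays and 1513 to 3176 without 1 array. Between adult bladder and the reference the median was -2.55 with a pseudocount of 165, -2.42 with median centring and -2.44 with the mean of probe sets; its probe sets called (3495) were 7245 with array weights, 5829 without both spike-in arrays and 1896 to 4624 without 1 array. With specific probe sets only, 33 of 38 members were lower in the adult. Kif4 passed the stage test under 7 alternatives, Dlgap5 under 3 and Kif23 with array weights (adjusted p = 0.0349). For Kif4 these include the filter at the array median, which it passed only through its newborn arrays. They also include the mean of a gene's probe sets, although Kif4 has 1 probe set. Both left its difference at -2.45, and neither is separate support. The count of members with the CHR core, 26, was 11 before the start alone. A part of the window can only lower such a count, but the size of the drop was not fixed. Over array genes the share was 15.7% in the whole window and 14.1% before the start. The cause of the other shifts was not tested. Dim adult values limit the size of a fold. No paired analysis was possible because the adult and newborn bladders came from different animals. The replicate numbers used here carry no link between the stages.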
